A study of Mus musculus with 14 samples.

Results

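Amino acid breakdown and the urea cycle were followed through 53 mouse genes, placed in 11 pathways by the amino acid or step they serve. The list names genes by pathway and uses no threshold on measured values, but it was drawn up with earlier results of these data known. Of the 53, 49 were found under their own symbol in the array's annotation and 1, Mut, through its current symbol Mmut, while Ass1, Gls2 and Amt had no probe set assigned to them alone and were not analysed here. Each of the 50 measured genes was represented by its probe set with the highest mean over all 14 arrays. Kynu fell below the filter on low values, and the remaining 49 were tested among the 8027 genes kept of 12394 genes with a probe set of their own.

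Liver RNA of C57BL/6J mice with diet-induced obesity (DIO) was hybridised to a 1-colour Affymetrix array, 1 array to a sample. The vehicle group held 5 samples from mice given vehicle. The GFP shRNA group held 4 samples, numbered 1, 2, 3 and 5, from mice given an adenovirus that carries a short hairpin RNA against green fluorescent protein (GFP Adv-shRNA), and the Jnk1 shRNA group held 5 samples from mice given an adenovirus with a hairpin against Jnk1 (Jnk1 Adv-shRNA). Every group shared the strain and the obesity, so that no lean liver was compared. The labels do not say that the samples came from separate mice, and they give no dose, time after infection, age or sex for any group. The p-values therefore measure the spread between these samples, which may be technical.

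The liver is the main site at which most amino acids other than the branched-chain ones are broken down. Nitrogen is passed by transamination to glutamate and aspartate or released as ammonia, and hepatocytes near the portal vein turn it into urea, while those around the central vein trap what is left as glutamine. The carbon skeletons enter glucose synthesis, the citrate cycle or ketone bodies. Many of the enzymes are under the control of glucagon, glucocorticoids and liver transcription factors. JNK1, the kinase encoded by Mapk8, is known in obese liver as a stress-activated kinase that phosphorylates c-Jun, a component of the transcription factor AP-1.

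Values below are intensities after quantile normalization of all arrays, and a difference is a difference of mean log2 intensity ± its standard error (SE), from limma's moderated test with Benjamini-Hochberg adjustment over 13575 probe sets. A gene is said to have risen or fallen where the adjusted p was under 0.05. Mapk8 itself, the target of the hairpin, lay between 58.8 and 82.2 in the Jnk1 shRNA group and between 159 and 182 in the GFP shRNA group, a fall to 40.2% of the GFP shRNA level. The labelled tissue matched its markers: the summed intensity of 8 hepatocyte genes (Alb, Ttr, Apoa1, Apob, Serpina1b, Fgb, Ahsg and Cyp2e1) was 41380 to 44360 with vehicle, 42130 to 44080 with GFP shRNA and 41190 to 42490 with Jnk1 shRNA. Quantile normalization gives the brightest probe sets like values on every array. The near-equal sums of such bright genes therefore do not compare the groups. A set of 18 bacterial spike-in probe sets are hybridisation controls and not liver genes. Their mean log2 level was 7.92 to 8.79 on the Jnk1 shRNA arrays, 8.82 to 8.98 on the GFP shRNA arrays and 8.78 to 9.004 on the vehicle arrays. Taken after quantile normalization, this level also depends on their rank among the liver probe sets. The counts of changed members with this level as a covariate are given with the other scalings.

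With the Jnk1 hairpin, most of the catabolic enzymes that changed were lower. Against GFP shRNA, proline dehydrogenase (Prodh), histidine ammonia lyase (Hal), ornithine aminotransferase (Oat) and the first enzyme of lysine breakdown (Aass) fell the most, while the taurine-forming enzyme Csad rose more than any other member. In that comparison 22 of the 49 members fell, 44.9% of them, where 15.8% of all probe sets tested fell. Another 10 members rose, 20.4% of them, where 17.3% of all probe sets rose. The median difference over the members was -0.13, against -0.01 over all probe sets. Under median scaling, in which each array is brought to 1 median in place of quantile normalization, 9 members fell where 8.43% of all probe sets fell, 10 rose where 22.0% of all rose, and 72.3% of calls over all probe sets were rises where 52.3% were after quantile normalization. In bulk tissue, fewer cells of a type and less RNA per cell cannot be told apart.

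Larger changes showed the same lean towards lower values. A fall of at least 0.5 on the log2 scale was called in 10 members, 20.4% of them, where 9.52% of all probe sets fell that far. A rise of that size was called in 4 members, 8.16% of them, beside 10.1% of all probe sets. In 30 members, 61.2% of them, the 5 Jnk1 shRNA arrays did not overlap the 4 GFP shRNA arrays, where 28.1% of all probe sets separated in this way.

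Against vehicle, the comparison that shares the Jnk1 shRNA arrays with the one above, 30 members fell, where 18.7% of all probe sets fell, and 9 rose, where 18.9% of all rose. The median over the members was -0.28, against -0.02 over all probe sets. A called fall of at least 0.5 was found in 14 members beside 10.9% of all probe sets, and a rise of that size in 4 members beside 11.1%. The Jnk1 shRNA arrays did not overlap the vehicle arrays in 29 members, 59.2% of them, beside 27.7% of all probe sets. Counts by pathway or list below stand beside the same shares of all probe sets. These are 17.3% risen and 15.8% fallen against GFP shRNA, and 18.9% and 18.7% against vehicle.

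The control virus by itself moved few members past the threshold. Between GFP shRNA and vehicle, 0 members rose, where 2.05% of all probe sets rose, and 1 fell, Cbs, where 0.53% of all fell. At an unadjusted p under 0.05 in limma, 2 members were higher and 18 lower. The share of all probe sets at that level was not counted, so these 2 counts have no background beside them. The difference was below 0 in 43 of the 49 members and in 7336 of all 13575 probe sets. The median was -0.14 over the members, against -0.02 over all probe sets. Differences of Jnk1 shRNA from vehicle given below include this difference of the control virus. Leaving out 1 array brought further members past the threshold. Lower were Got1 without vehicle array 1 (-0.47, adjusted p = 0.0376), Afmid without vehicle array 2 (-0.85, adjusted p = 0.0442) and Nags without GFP shRNA array 1 (-0.76, adjusted p = 0.0262). Csad was higher without GFP shRNA array 1 (0.98, adjusted p = 0.00633).

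**Figure D1:**
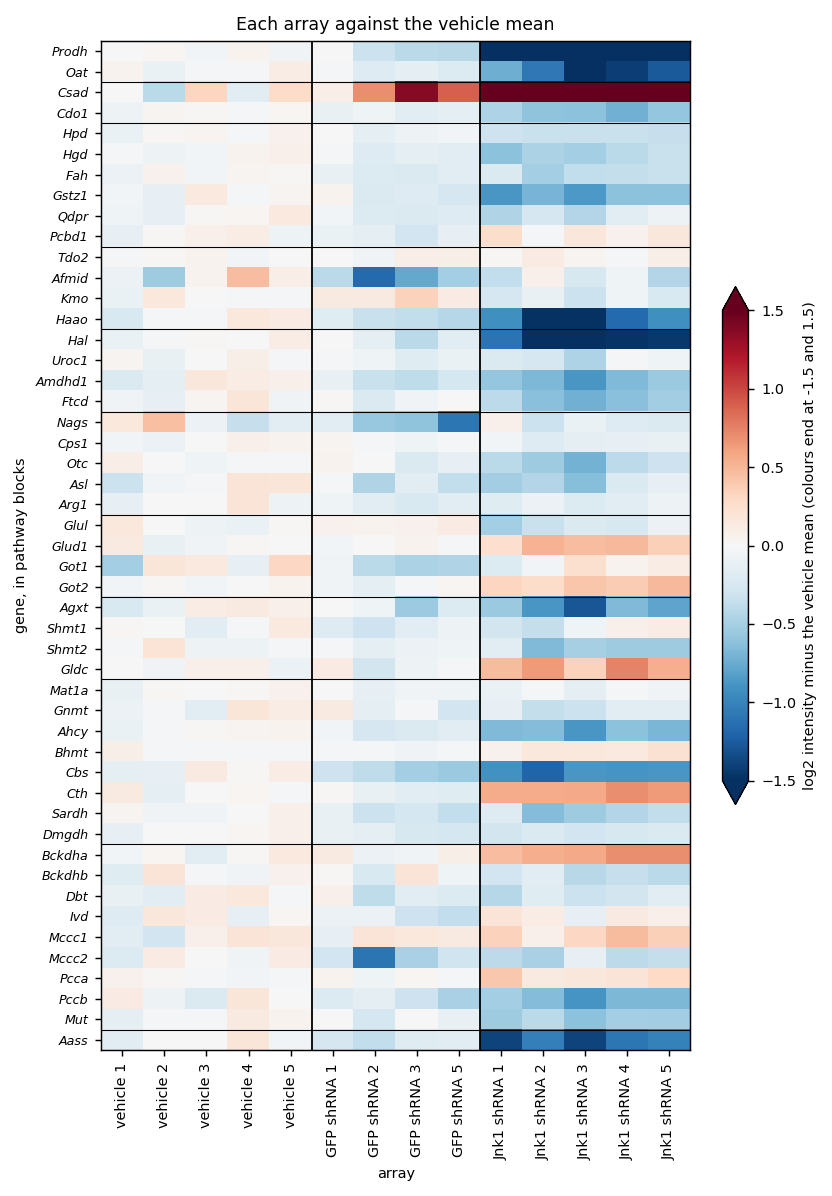
Log2 intensity of the 49 tested members (in pathway blocks) on each of the 14 arrays (columns), each minus the mean of the 5 vehicle arrays; blue is lower, red is higher, and colours stop at -1.5 and 1.5. The 5 Jnk1 shRNA columns hold most of the strong colours, with Prodh, Oat, Haao, Hal and Aass blue and Csad, Cth, Bckdha and Gldc red, while Csad is also red on GFP shRNA arrays 2, 3 and 5.

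**Figure D2:**
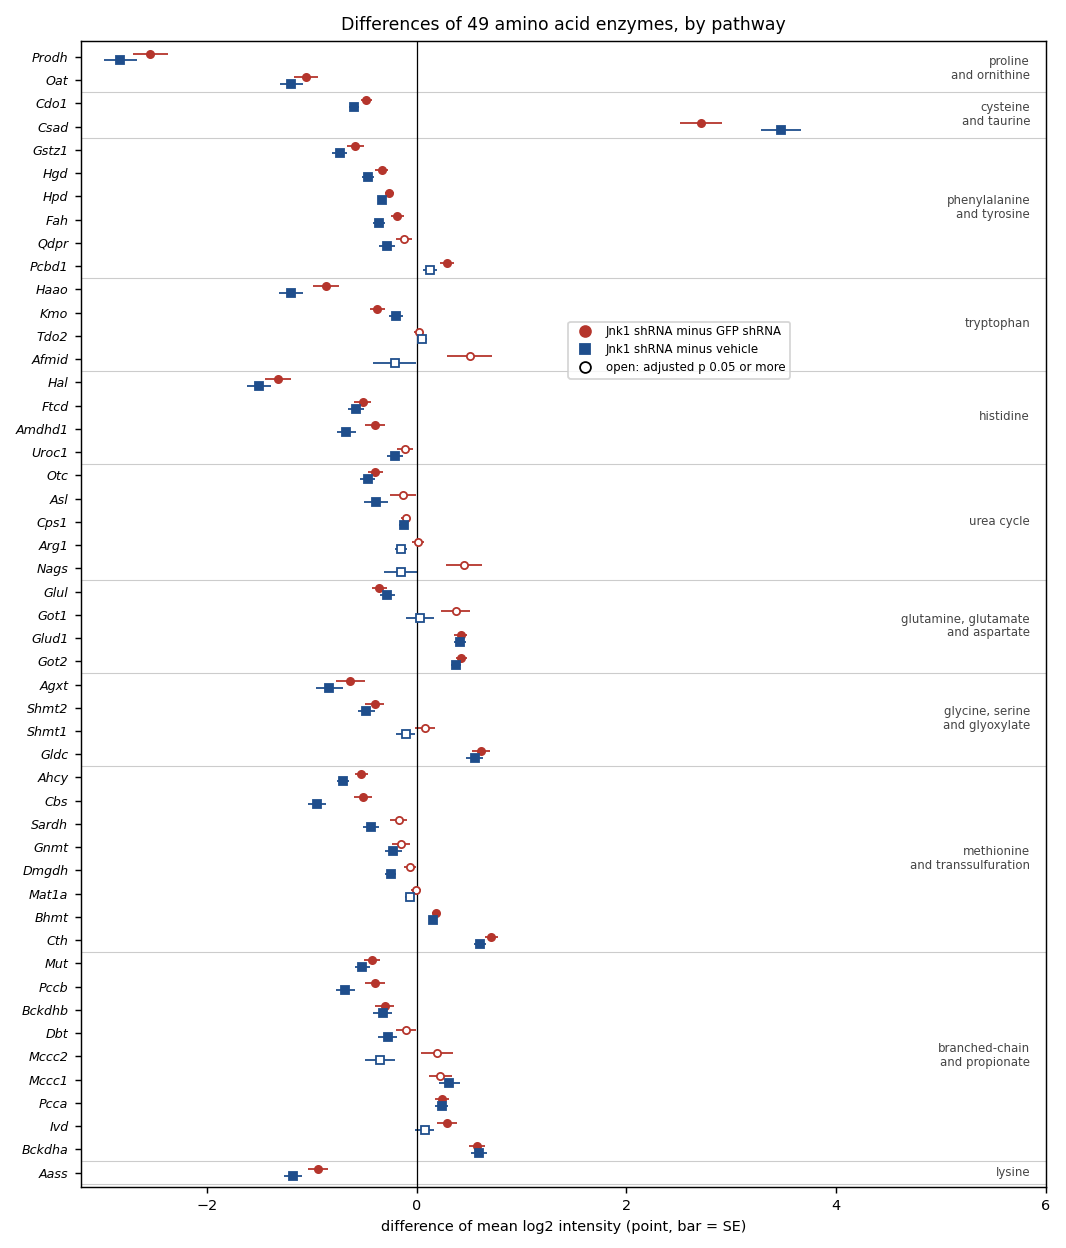
Difference of mean log2 intensity (point) with its SE (bar) for each tested member by pathway, Jnk1 shRNA minus GFP shRNA as circles and Jnk1 shRNA minus vehicle as squares, filled where the adjusted p was under 0.05. Prodh at -2.54 and Csad at 2.71 against GFP shRNA stand at the ends, and the members of most pathways lie on both sides of 0.

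To set the sequence upstream of the most changed members beside the values, promoter windows of 300 bases were read from RefSeq (mouse build GRCm38.p6), from 250 bases before to 50 after the annotated start. Such a window was listed for 41 of the 50 measured members. Shown are the windows of the members with a listed window that fell most (Prodh and Hal) and rose most (Csad and Gldc) against GFP shRNA, each 5′ to 3′ on the gene's own strand. Capitals mark matches, on either strand, to any of the letters searched: AP-1 (TGANTCA), the cAMP response element (TGACGTCA) and its single arm (TGACG), HNF4 (CAAAGTCCA), C/EBP (TTGCNNAA), the E-box (CACGTG), the CCAAT box (CCAAT) and the TATA box (TATAAA). The single arm lies within the full cAMP response element, so a match to the latter is also one to the former.
Prodh, chr16:18089141-18089440, minus strand: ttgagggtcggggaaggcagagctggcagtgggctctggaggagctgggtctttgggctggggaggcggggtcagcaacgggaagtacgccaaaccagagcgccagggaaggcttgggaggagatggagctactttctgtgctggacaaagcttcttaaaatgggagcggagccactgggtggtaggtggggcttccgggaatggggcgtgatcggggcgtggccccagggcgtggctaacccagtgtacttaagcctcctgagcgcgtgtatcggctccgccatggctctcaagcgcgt
Hal, chr10:93488518-93488817, plus strand: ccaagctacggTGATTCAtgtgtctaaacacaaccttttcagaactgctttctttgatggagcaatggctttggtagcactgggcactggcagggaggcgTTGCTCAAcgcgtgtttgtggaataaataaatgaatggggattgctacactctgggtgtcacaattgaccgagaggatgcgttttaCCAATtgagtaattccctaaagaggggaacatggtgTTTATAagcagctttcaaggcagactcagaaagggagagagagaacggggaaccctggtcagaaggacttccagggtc
Csad, chr15:102205003-102205302, minus strand, the first of its 2 listed starts: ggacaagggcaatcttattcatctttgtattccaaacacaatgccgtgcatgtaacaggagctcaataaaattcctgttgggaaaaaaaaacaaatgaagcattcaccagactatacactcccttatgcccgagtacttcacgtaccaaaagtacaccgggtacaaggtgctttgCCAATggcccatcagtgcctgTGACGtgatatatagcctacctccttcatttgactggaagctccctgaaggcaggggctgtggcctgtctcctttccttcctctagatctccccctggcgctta
Gldc, chr19:30175392-30175691, minus strand: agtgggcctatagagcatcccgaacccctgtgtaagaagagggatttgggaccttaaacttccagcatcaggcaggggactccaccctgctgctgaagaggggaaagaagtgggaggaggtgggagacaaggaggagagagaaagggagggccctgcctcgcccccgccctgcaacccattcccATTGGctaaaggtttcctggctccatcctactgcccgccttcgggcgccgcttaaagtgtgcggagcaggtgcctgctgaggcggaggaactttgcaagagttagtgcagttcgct

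The Prodh window held none of the 8 letter strings. Hal, the periportal gene of histidine breakdown, held an AP-1 match starting 239 bases before the start, a C/EBP match 150 before it, a CCAAT box 64 before it and a TATA match on the opposite strand 28 before it. Csad held a CCAAT box 75 bases and the single arm of the cAMP response element 54 bases before its first start, and its other window held no match. Gldc held a CCAAT box on the opposite strand 66 bases before the start. The AP-1 letters were found in 3 of the 41 member windows (7.32%), those of Hpd, Hal and Ahcy, and in 7.81% of all 32851 windows in the table. The C/EBP letters were in 9.76% of member windows and 10.8% of all, the E-box in 4.88% and 7.15%, the TATA box in 14.6% and 13.6%, and the single arm of the cAMP response element in 17.1% and 20.8%. The CCAAT box was in 53.7% of member windows and 37.4% of all. Of all windows, 1.79% held the full cAMP response element and 0.475% the HNF4 letters, and no member window did. Where a gene had several windows the first listed was counted. These counts describe letters in a short window and say nothing of binding.

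Proline and ornithine share a breakdown product, glutamate semialdehyde, and both members of this pathway fell. Prodh, the mitochondrial enzyme that starts proline oxidation, had intensities of 573.2, 585.8, 557.9, 595.2 and 551.3 on the vehicle arrays, 569.8, 458.6, 430.9 and 429.5 on the GFP shRNA arrays and 129.9, 81.4, 66.8, 80.2 and 60.5 on the Jnk1 shRNA arrays. Every Jnk1 shRNA array lay far below every other array, with array 1 of that group the highest of the 5, and GFP shRNA array 1 at the vehicle level. The difference was -2.54 ± 0.17 against GFP shRNA (adjusted p = 3.53e-08), a fall to 17.2% of that level, and -2.83 ± 0.16 against vehicle (adjusted p = 2.35e-09). Oat, the mitochondrial aminotransferase that turns ornithine into the same semialdehyde and that marks pericentral hepatocytes, had intensities of 3699, 3347, 3498, 3489 and 3853 with vehicle, 3489, 3128, 3238 and 3104 with GFP shRNA and 2155, 1701, 1245, 1347 and 1495 with Jnk1 shRNA. Again no Jnk1 shRNA array overlapped the others, while vehicle and GFP shRNA did overlap, and array 1 was the highest of the Jnk1 shRNA arrays and array 3 the lowest. It fell to 48.2% of the GFP shRNA level, at -1.05 ± 0.12 (adjusted p = 5.23e-06), and at -1.20 ± 0.11 against vehicle (adjusted p = 4.21e-07).

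Among 4 further genes of proline metabolism on the array, 1 rose and 3 did not pass the test against GFP shRNA. The one that rose was Pycrl, a reductase of proline synthesis, at 0.57 ± 0.10 (adjusted p = 0.00047). Aldh18a1, the first enzyme of proline synthesis, was at -0.48 (adjusted p = 0.148), and Aldh4a1, the enzyme after Prodh, at 0.37 (adjusted p = 0.125), both named after their values were seen.

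**Figure D3:**
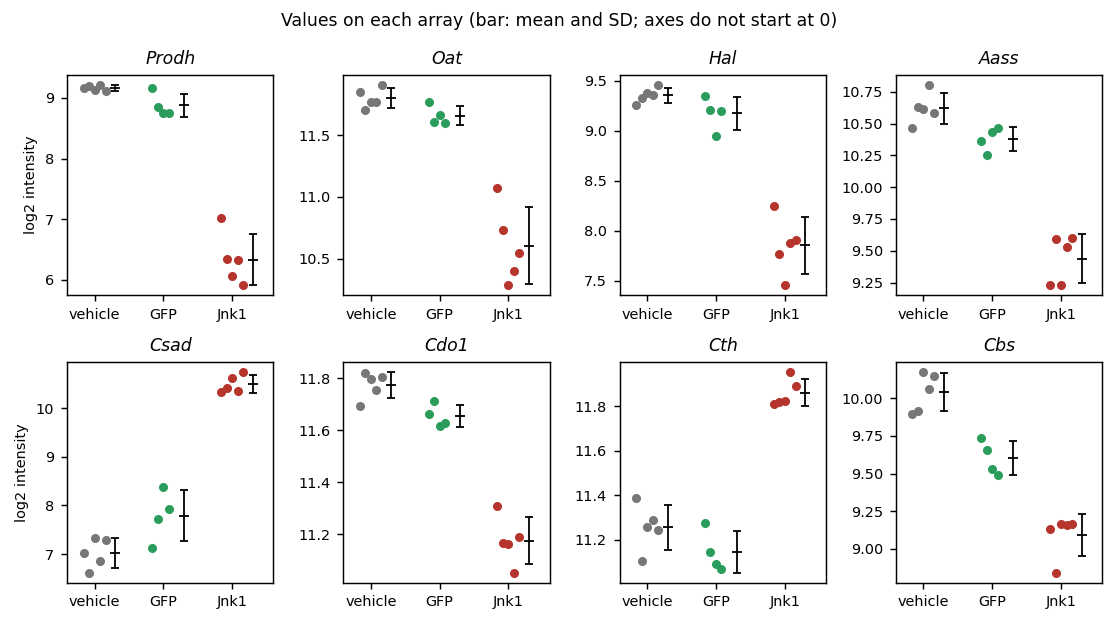
Log2 intensity on each array (points) for 8 members in the vehicle (n = 5), GFP shRNA (n = 4) and Jnk1 shRNA (n = 5) groups, with the group mean and SD as a bar; each panel has its own axis, which does not start at 0. In each of the 8 panels the Jnk1 shRNA points lie apart from all others, below them for Prodh, Oat, Hal, Aass, Cdo1 and Cbs and above them for Csad and Cth.

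Cysteine is oxidised by cysteine dioxygenase (Cdo1) to cysteine sulfinate, which Csad decarboxylates on the way to taurine, and these consecutive enzymes changed in opposite directions. Csad had intensities of 129.4, 98.2, 162.1, 115.3 and 157.1 with vehicle, 139.2, 210.9, 334.2 and 242.3 with GFP shRNA and 1292, 1374, 1582, 1314 and 1718 with Jnk1 shRNA. All Jnk1 shRNA arrays lay far above the rest, and 3 of the 4 GFP shRNA arrays lay above every vehicle array. The rise was 6.55-fold over GFP shRNA, 2.71 ± 0.20 (adjusted p = 1.1e-07), and 3.47 ± 0.19 over vehicle (adjusted p = 2.13e-09). The difference of the control virus from vehicle, 0.76 ± 0.20, had an adjusted p of 0.0576 and passed the threshold as deposited (adjusted p = 0.0411), with the replicate block (adjusted p = 0.0288) and without GFP shRNA array 1, where it was 0.98 (adjusted p = 0.00633).

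Cdo1 had intensities of 3308, 3612, 3555, 3458 and 3574 with vehicle, 3238, 3358, 3138 and 3168 with GFP shRNA and 2534, 2300, 2291, 2124 and 2337 with Jnk1 shRNA. The Jnk1 shRNA arrays lay below every other array, with array 4 the lowest and array 1 the highest. The difference was -0.48 ± 0.05 against GFP shRNA (adjusted p = 3.96e-06) and -0.60 ± 0.05 against vehicle (adjusted p = 1.18e-07). Of 6 further genes of cysteine and taurine metabolism, 1 rose and 2 fell against GFP shRNA. Ethe1, the mitochondrial persulfide dioxygenase of sulfide oxidation, had the smallest adjusted p of them, with a difference of 1.25 ± 0.09 (adjusted p = 7.95e-08) and 1.12 ± 0.08 against vehicle.

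Methionine is activated to S-adenosylmethionine, demethylated to homocysteine and either remethylated or passed to cysteine through transsulfuration. Along this path the step that hydrolyses S-adenosylhomocysteine (Ahcy) and the first step of transsulfuration (Cbs) fell, while the second step of transsulfuration (Cth) rose. Of the 8 members, 2 rose, 2 fell and 4 did not pass against GFP shRNA, and 2 rose, 5 fell and 1 did not pass against vehicle. Over all probe sets 17.3% rose and 15.8% fell against GFP shRNA, and 18.9% rose and 18.7% fell against vehicle. Mat1a, which makes S-adenosylmethionine in adult hepatocytes, had 3084, 3367, 3336, 3376 and 3489 with vehicle, 3354, 3044, 3204 and 3184 with GFP shRNA and 3112, 3273, 3025, 3291 and 3204 with Jnk1 shRNA. Its groups overlapped throughout, and the difference was -0.01 ± 0.05 against GFP shRNA (adjusted p = 0.929). Against vehicle it was at -0.07 (adjusted p = 0.272), and in the values as deposited at -0.32 (adjusted p = 0.00549).

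Ahcy had intensities of 3555, 3774, 3866, 3922 and 3965 with vehicle, 3706, 3190, 3273 and 3388 with GFP shRNA and 2402, 2433, 2084, 2482 and 2368 with Jnk1 shRNA. All Jnk1 shRNA arrays were lower than all others, with array 3 clearly the lowest. The difference was -0.53 ± 0.06 against GFP shRNA (adjusted p = 6.58e-06) and -0.70 ± 0.06 against vehicle (adjusted p = 1.09e-07). Cbs had intensities of 954.7, 967.5, 1157, 1070 and 1135 with vehicle, 851.6, 808.7, 739.4 and 717.6 with GFP shRNA and 561.6, 458.2, 573.5, 570.5 and 573.2 with Jnk1 shRNA. The groups formed separate steps, with every GFP shRNA array below every vehicle array and every Jnk1 shRNA array below both. Cbs fell, at -0.51 ± 0.09 against GFP shRNA (adjusted p = 0.00029) and at -0.95 ± 0.08 against vehicle (adjusted p = 2.34e-07), and the control virus alone was at -0.44 ± 0.09 (adjusted p = 0.0109). That last call was lost without GFP shRNA array 5 (adjusted p = 0.0505), and the call against GFP shRNA was lost under median scaling (-0.28, adjusted p = 0.122).

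Cth, the cystathionine lyase that completes transsulfuration to cysteine, had intensities of 2676, 2202, 2450, 2503 and 2424 with vehicle, 2482, 2270, 2180 and 2150 with GFP shRNA and 3594, 3612, 3627, 3965 and 3797 with Jnk1 shRNA. Its Jnk1 shRNA arrays lay above all others and close together. The rise was 1.64-fold over GFP shRNA, 0.71 ± 0.06 (adjusted p = 3.64e-07), and 0.60 ± 0.06 over vehicle (adjusted p = 5.32e-07). Bhmt, which remethylates homocysteine with betaine, was among the brightest probe sets and its direction depended on the scaling: it was at 0.19 ± 0.04 against GFP shRNA after quantile normalization (adjusted p = 0.00208) and at -0.26 in the values as deposited (adjusted p = 0.0349). Gnmt, the methyltransferase that uses up excess S-adenosylmethionine, and the dimethylglycine and sarcosine dehydrogenases Dmgdh and Sardh had differences of -0.15, -0.06 and -0.17 against GFP shRNA, none past the threshold. Gnmt passed in the values as deposited (-0.37, adjusted p = 0.0211) and Sardh with the spike-in covariate (-0.38, adjusted p = 0.0136). Against vehicle all of these fell, at -0.22 ± 0.08 for Gnmt (adjusted p = 0.0385), at -0.25 ± 0.05 for Dmgdh (adjusted p = 0.00175) and at -0.44 ± 0.08 for Sardh (adjusted p = 0.000254). A second probe set of Sardh, not the brightest, fell, at -0.79 against GFP shRNA (adjusted p = 0.000653), so the probe sets of this gene disagreed in size, and the brighter one passed without Jnk1 shRNA array 1 (-0.23, adjusted p = 0.0223). The Gnmt call against vehicle was lost without any 1 of vehicle arrays 2, 4 and 5 and Jnk1 shRNA arrays 2 and 3 (highest adjusted p = 0.107). It was also lost with the spike-in covariate (-0.30, adjusted p = 0.11). The Dmgdh call was lost under median scaling (-0.25, adjusted p = 0.103) and with the spike-in covariate (-0.22, adjusted p = 0.0717), where its differences stayed about as large. Of 5 further genes of the pathway, 1 rose and 2 fell against GFP shRNA. The smallest adjusted p was that of Bhmt2, a methylmethionine-using relative of Bhmt, at -1.05 ± 0.09 (adjusted p = 3.2e-07). Bhmt and Bhmt2 are similar in sequence, so some signal of one may reach the probe set of the other.

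Histidine is broken down by Hal, Uroc1 and Amdhd1 in sequence and its one-carbon unit is taken up by Ftcd. Against GFP shRNA 3 of these 4 members fell, and against vehicle all 4, beside 15.8% and 18.7% of all probe sets. Hal, which removes the amino group and marks periportal hepatocytes, had intensities of 609.6, 642.5, 664.6, 654.6 and 704.1 with vehicle, 649.6, 589, 494.4 and 586.5 with GFP shRNA and 304.3, 218, 175.2, 235.6 and 240.6 with Jnk1 shRNA. All 5 Jnk1 shRNA arrays lay below the others by a wide margin, array 3 lowest and array 1 highest. Hal fell to 40% of the GFP shRNA level, at -1.32 ± 0.12 (adjusted p = 1.03e-06), and at -1.502 ± 0.12 against vehicle (adjusted p = 7.52e-08).

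Ftcd and Amdhd1, later in the pathway, were lower as well. Ftcd had intensities of 1471, 1392, 1560, 1732 and 1470 with vehicle, 1538, 1307, 1467 and 1523 with GFP shRNA and 1160, 983.6, 925.7, 981.8 and 1060 with Jnk1 shRNA, and the Jnk1 shRNA arrays lay below all others. It fell, at -0.51 ± 0.08 against GFP shRNA (adjusted p = 0.000115) and at -0.58 ± 0.07 against vehicle (adjusted p = 1.45e-05). Amdhd1, the imidazolonepropionase, had intensities of 621, 657, 808.7, 777.7 and 758.3 with vehicle, 666.5, 573.2, 554.9 and 600.4 with GFP shRNA and 483.2, 451, 394, 456.4 and 488.9 with Jnk1 shRNA, the last of these below all others. It fell, at -0.40 ± 0.09 against GFP shRNA (adjusted p = 0.00365) and at -0.67 ± 0.09 against vehicle (adjusted p = 1.71e-05). Under median scaling the falls of Ftcd and Amdhd1 against GFP shRNA no longer passed, at -0.32 (adjusted p = 0.0941) and -0.17 (adjusted p = 0.404). The urocanase Uroc1, which acts between Hal and Amdhd1, differed by -0.11 ± 0.08 against GFP shRNA (adjusted p = 0.295). It fell, at -0.20 ± 0.07 against vehicle (adjusted p = 0.0377). That call was lost under 15 alternatives, among them without vehicle array 1, 3, 4 or 5 or Jnk1 shRNA array 1, 2 or 3 (highest adjusted p of these 0.0993). The 4 further histidine and folate genes held 0 calls in either direction against GFP shRNA in limma, and 1 was lower at an unadjusted p under 0.05.

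Lysine enters its main hepatic route through Aass, the mitochondrial enzyme that joins lysine to 2-oxoglutarate. Aass had intensities of 1415, 1585, 1567, 1791 and 1532 with vehicle, 1319, 1222, 1382 and 1413 with GFP shRNA and 601.7, 774, 599.5, 739.7 and 778.1 with Jnk1 shRNA. The Jnk1 shRNA arrays lay below all others. Every GFP shRNA array was also below every vehicle array, though barely (highest 1413, lowest 1415). The difference of GFP shRNA from vehicle, -0.24 ± 0.09, did not pass (adjusted p = 0.217). With Jnk1 shRNA, Aass fell to 52.1% of the GFP shRNA level, at -0.94 ± 0.09 (adjusted p = 1.7e-06), and at -1.18 ± 0.09 against vehicle (adjusted p = 4.28e-08). Both further lysine genes that were tested fell, with the smaller adjusted p for Aldh7a1, the dehydrogenase of the same route, at -0.32 ± 0.05 (adjusted p = 0.000167).

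In tryptophan breakdown Kmo and Haao fell, while the entry enzyme Tdo2 did not pass the test. Tdo2, the liver dioxygenase that opens the ring and sets the rate, had intensities of 4123, 4207, 4314, 4070 and 4157 with vehicle, 4192, 4019, 4470 and 4432 with GFP shRNA and 4236, 4550, 4292, 4133 and 4450 with Jnk1 shRNA. The groups overlapped, and the difference was 0.02 ± 0.04 against GFP shRNA (adjusted p = 0.781) and 0.05 ± 0.04 against vehicle (adjusted p = 0.343). In the values as deposited the direction against vehicle turned, to -0.25 (adjusted p = 0.0426). Haao, which turns 3-hydroxyanthranilate into the precursor of quinolinate and NAD, had intensities of 1102, 1276, 1265, 1445 and 1409 with vehicle, 1143, 1022, 998.5 and 962.6 with GFP shRNA and 681.5, 463.5, 461.5, 577.5 and 685.2 with Jnk1 shRNA. No Jnk1 shRNA array reached the level of any other array, and arrays 2 and 3 were the lowest. Haao fell to 54.9% of the GFP shRNA level, at -0.87 ± 0.12 (adjusted p = 5.27e-05), and at -1.19 ± 0.11 against vehicle (adjusted p = 7.03e-07).

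Kmo, the kynurenine hydroxylase that precedes it, fell, at -0.38 ± 0.07 against GFP shRNA (adjusted p = 0.00081) and at -0.19 ± 0.07 against vehicle (adjusted p = 0.0337). The first of these was lost under median scaling (-0.19, adjusted p = 0.303) and with the spike-in covariate (-0.31, adjusted p = 0.0571). The second was lost without any 1 of Jnk1 shRNA arrays 1, 3 and 5 or vehicle arrays 2 and 3 (highest adjusted p = 0.0898). It was also lost under median scaling (-0.22, adjusted p = 0.213) and with the spike-in covariate (-0.13, adjusted p = 0.436). Afmid, the formamidase between Tdo2 and Kmo, was dim, at 21.1 to 35.8 with GFP shRNA and 34.9 to 50.1 with Jnk1 shRNA, and its difference of 0.51 ± 0.21 had an adjusted p of 0.0824. Kynu, below the filter, was at 12.5 to 21.5 with Jnk1 shRNA, 14.8 to 41.0 with GFP shRNA and 26.0 to 38.6 with vehicle, and it was not tested. Of 5 further tryptophan genes 1 rose and 2 fell against GFP shRNA, with the smallest adjusted p for Aadat, the kynurenine and aminoadipate aminotransferase, at -0.86 ± 0.10 (adjusted p = 8.22e-06).

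Phenylalanine and tyrosine are degraded by Hpd, Hgd, Gstz1 and Fah after transamination of tyrosine, with Qdpr and Pcbd1 restoring the pterin cofactor of the hydroxylase step. All 4 degradation enzymes fell, while Pcbd1 rose against GFP shRNA. Hpd, the dioxygenase that makes homogentisate, had intensities of 4292, 4655, 4721, 4550 and 4828 with vehicle, 4571, 4157, 4358 and 4470 with GFP shRNA and 3728, 3663, 3654, 3663 and 3612 with Jnk1 shRNA. Its Jnk1 shRNA arrays lay below the others and within a narrow range. Hpd fell, at -0.26 ± 0.04 against GFP shRNA (adjusted p = 0.00023) and at -0.33 ± 0.04 against vehicle (adjusted p = 8.9e-06). Gstz1, the maleylacetoacetate isomerase, had intensities of 1852, 1758, 2113, 1865 and 1968 with vehicle, 1982, 1642, 1670 and 1603 with GFP shRNA and 1042, 1174, 1046, 1246 and 1241 with Jnk1 shRNA, and the Jnk1 shRNA values lay below all others. It fell, at -0.58 ± 0.08 against GFP shRNA (adjusted p = 3.82e-05) and at -0.73 ± 0.07 against vehicle (adjusted p = 1.33e-06).

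Hgd, which opens the ring of homogentisate, fell, at -0.33 ± 0.06 against GFP shRNA (adjusted p = 0.00051), and Fah, the last enzyme, at -0.18 ± 0.06 (adjusted p = 0.0245). The Fah call was lost without any 1 of GFP shRNA arrays 1 and 5 and Jnk1 shRNA array 2 (adjusted p of 0.072, 0.0551 and 0.0533), and under median scaling, where it was at -0.07 (adjusted p = 0.73). Hgd lost its call under median scaling (-0.22, adjusted p = 0.226) and with the spike-in covariate (-0.23, adjusted p = 0.0735). Hpd lost its call under median scaling although the difference was larger there (-0.34, adjusted p = 0.0973). Pcbd1, the carbinolamine dehydratase, differed by 0.29 ± 0.07 against GFP shRNA (adjusted p = 0.00365) and by 0.13 ± 0.06 against vehicle (adjusted p = 0.129), and its call was lost in the values as deposited (0.20, adjusted p = 0.0742) and with the spike-in covariate (0.15, adjusted p = 0.289). Its difference from vehicle passed without Jnk1 shRNA array 2 (0.17, adjusted p = 0.0455). Qdpr, the dihydropteridine reductase, was at -0.12 ± 0.08 against GFP shRNA (adjusted p = 0.264), but it was lower in its second probe set (-0.30, adjusted p = 0.0186) and in the values as deposited (-0.30, adjusted p = 0.0291). It fell, at -0.28 ± 0.07 against vehicle (adjusted p = 0.00644), a call lost with the spike-in covariate (-0.13, adjusted p = 0.429). Of 5 further genes 2 rose and 3 did not pass against GFP shRNA, and Fahd1, a mitochondrial acylpyruvase of the same protein family as Fah, had the smallest adjusted p, at 1.38 ± 0.19 (adjusted p = 4.34e-05).

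Of 5 urea cycle members tested, 1 fell against GFP shRNA, Otc, and 4 did not pass, where 15.8% of all probe sets fell. Cps1, which fixes ammonia as carbamoyl phosphate, had intensities of 4277, 4163, 4412, 4637 and 4571 with vehicle, 4550, 4328, 4223 and 4328 with GFP shRNA and 4292, 3866, 3980, 4048 and 4070 with Jnk1 shRNA. The groups overlapped, with Jnk1 shRNA array 1 among the GFP shRNA values. The difference was -0.11 ± 0.05 against GFP shRNA (adjusted p = 0.084), which passed without Jnk1 shRNA array 1 (-0.13, adjusted p = 0.0407) and in the values as deposited (-0.35, adjusted p = 0.00734). Against vehicle it fell, at -0.12 ± 0.04 (adjusted p = 0.0315), a call lost without any 1 of vehicle arrays 3, 4 and 5 and Jnk1 shRNA arrays 2, 3, 4 and 5 (highest adjusted p = 0.0838). Otc, which joins carbamoyl phosphate to ornithine, had intensities of 3122, 2886, 2793, 2878 and 2878 with vehicle, 3006, 2899, 2508 and 2661 with GFP shRNA and 2206, 2017, 1780, 2214 and 2354 with Jnk1 shRNA. Its Jnk1 shRNA arrays lay below all others, and the difference was -0.39 ± 0.08 against GFP shRNA (adjusted p = 0.00083) and -0.47 ± 0.07 against vehicle (adjusted p = 7.6e-05). Of its other probe sets, one also fell, at -0.54 against GFP shRNA (adjusted p = 0.00544), and one was at 0.29 (adjusted p = 0.281).

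The cytosolic steps that were measured, Asl and Arg1, did not pass against GFP shRNA, and neither did Nags. Asl, which splits argininosuccinate, differed by -0.13 ± 0.12 (adjusted p = 0.437) but fell, at -0.39 ± 0.11 against vehicle (adjusted p = 0.0136), a call lost under median scaling, where the difference was as large (-0.42, adjusted p = 0.0718), and with the spike-in covariate (-0.26, adjusted p = 0.335). Arg1, which releases urea, differed by 0.01 ± 0.06 against GFP shRNA (adjusted p = 0.903) and by -0.15 ± 0.06 against vehicle (adjusted p = 0.0523). Nags, which makes the activator of Cps1, differed by 0.45 ± 0.17 against GFP shRNA (adjusted p = 0.0535), with GFP shRNA at 123.5 to 235.6 and Jnk1 shRNA at 210.4 to 276.7, and by -0.15 ± 0.16 against vehicle (adjusted p = 0.496). Nags passed against GFP shRNA without GFP shRNA array 1 (0.61, adjusted p = 0.0133), vehicle array 2 (adjusted p = 0.0338) or vehicle array 4 (adjusted p = 0.0466), and Arg1 passed against vehicle without vehicle array 1 (-0.18, adjusted p = 0.0219), vehicle array 5 or Jnk1 shRNA array 2. Arg1 was lower against vehicle by more in the values as deposited (-0.41, adjusted p = 0.00265) and under median scaling (-0.38, adjusted p = 0.0428). All 3 further urea cycle genes tested changed against GFP shRNA. Slc25a15, the mitochondrial ornithine carrier that serves Otc and Oat, fell, at -0.84 ± 0.07 (adjusted p = 1.75e-07) and at -1.01 ± 0.06 against vehicle (adjusted p = 6.13e-09).

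Among enzymes that handle glutamate and aspartate, both mitochondrial ones measured rose. Of 4 members tested, Glud1 and Got2 rose, Glul fell and Got1 did not pass against GFP shRNA. Over all probe sets 17.3% rose and 15.8% fell in that comparison. Glud1, the dehydrogenase that releases ammonia from glutamate, had 3922 to 4708 on the Jnk1 shRNA arrays and 3052 to 3594 on all others, and rose by 0.42 ± 0.06 against GFP shRNA (adjusted p = 5.27e-05) and by 0.42 ± 0.06 against vehicle (adjusted p = 2.16e-05). Got2, the mitochondrial aspartate aminotransferase, had 3025 to 3505 on the Jnk1 shRNA arrays and 2266 to 2591 on all others, and rose by 0.43 ± 0.05 against GFP shRNA (adjusted p = 1.28e-05) and by 0.38 ± 0.05 against vehicle (adjusted p = 1.43e-05). In the values as deposited Glud1 was at 0.17 against GFP shRNA (adjusted p = 0.137) and 0.13 against vehicle (adjusted p = 0.211), and Got2 at 0.15 against vehicle (adjusted p = 0.153), so these calls depended on the scaling of bright probe sets. Got1, the cytosolic form, differed by 0.37 ± 0.14 against GFP shRNA (adjusted p = 0.0529) and passed without any 1 of vehicle arrays 1 and 5, GFP shRNA array 1 and Jnk1 shRNA array 1 (0.37 to 0.47, highest adjusted p = 0.0439).

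Glul, the pericentral glutamine synthetase, had intensities of 2315, 2076, 1975, 1944 and 2099 with vehicle, 2166, 2155, 2171 and 2263 with GFP shRNA and 1453, 1645, 1786, 1760 and 1956 with Jnk1 shRNA. The Jnk1 shRNA arrays lay below every GFP shRNA array, while array 5 of the group was above the lowest vehicle array. It fell, at -0.35 ± 0.07 against GFP shRNA (adjusted p = 0.00172) and at -0.28 ± 0.07 against vehicle (adjusted p = 0.00492), and it lost the first call under median scaling (-0.23, adjusted p = 0.17) and both with the spike-in covariate (-0.23, adjusted p = 0.154, and -0.15, adjusted p = 0.346). A second probe set of Glul had a larger fall, -0.76 against GFP shRNA (adjusted p = 8.49e-06). Of 6 further genes 1 rose and 1 fell against GFP shRNA, the latter being Gpt, alanine aminotransferase, with the smallest adjusted p and a difference of -0.46 ± 0.07 (adjusted p = 0.000121).

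Glycine is split in mitochondria by the glycine cleavage system, of which Gldc is the decarboxylase, and glyoxylate is turned back into glycine by Agxt. Gldc rose and Agxt fell. Gldc had intensities of 588.4, 570.1, 622.5, 626.6 and 558.2 with vehicle, 644, 490.6, 560.9 and 585.8 with GFP shRNA and 822.2, 922.8, 754.4, 996.2 and 868 with Jnk1 shRNA, and every Jnk1 shRNA array was above every other array. The rise was 0.61 ± 0.09 over GFP shRNA (adjusted p = 7.42e-05) and 0.55 ± 0.08 over vehicle (adjusted p = 7.96e-05). Agxt had intensities of 1062, 1164, 1346, 1365 and 1313 with vehicle, 1252, 1192, 855.3 and 1078 with GFP shRNA and 848.8, 678.3, 512.8, 784.2 and 720.4 with Jnk1 shRNA. Jnk1 shRNA lay below all other arrays, but GFP shRNA array 3 came within a few units of Jnk1 shRNA array 1. Agxt fell, at -0.63 ± 0.14 against GFP shRNA (adjusted p = 0.00208) and at -0.83 ± 0.13 against vehicle (adjusted p = 8.92e-05), and the first call was lost under median scaling (-0.43, adjusted p = 0.0615).

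Of the serine hydroxymethyltransferases, which exchange serine and glycine, 1 passed the test. Shmt2, the mitochondrial form, fell, at -0.40 ± 0.09 against GFP shRNA (adjusted p = 0.00269) and at -0.48 ± 0.08 against vehicle (adjusted p = 0.000285). Shmt1, the cytosolic form, differed by 0.08 ± 0.10 against GFP shRNA (adjusted p = 0.566) and by -0.10 ± 0.09 against vehicle (adjusted p = 0.407). The difference between the 2 forms was not tested, a second Shmt1 probe set was at -0.58 against vehicle (adjusted p = 0.000271), and the Shmt2 call against GFP shRNA was lost under median scaling (-0.18, adjusted p = 0.31). Of 10 further genes of glycine, serine and glyoxylate metabolism 2 rose and 3 fell against GFP shRNA, with the smallest adjusted p for Glyat, the glycine acyltransferase, at -0.44 ± 0.08 (adjusted p = 0.000325).

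Branched-chain amino acids and propionate are oxidised by mitochondrial complexes built of different subunits, and the subunits of the branched-chain ketoacid dehydrogenase and of propionyl-CoA carboxylase did not change alike. Of 9 members, 3 rose (Bckdha, Pcca and the brightest probe set of Ivd), 3 fell (Bckdhb, Pccb and Mut) and 3 did not pass against GFP shRNA, and 3 rose (Bckdha, Mccc1 and Pcca) and 4 fell (Bckdhb, Dbt, Pccb and Mut) against vehicle. Over all probe sets 17.3% rose and 15.8% fell against GFP shRNA, and 18.9% rose and 18.7% fell against vehicle. Bckdha, the alpha subunit of the branched-chain ketoacid dehydrogenase, had intensities of 530, 559.6, 489.7, 552.5 and 606.1 with vehicle, 597.6, 512.3, 525.3 and 580.4 with GFP shRNA and 751.5, 794.9, 810, 885.4 and 886.1 with Jnk1 shRNA. Its Jnk1 shRNA arrays lay above all others, and the rise was 0.58 ± 0.08 over GFP shRNA (adjusted p = 3.94e-05) and 0.59 ± 0.07 over vehicle (adjusted p = 1.08e-05). Bckdhb, the beta subunit of the same enzyme, fell, at -0.31 ± 0.09 against GFP shRNA (adjusted p = 0.0184), a call lost without GFP shRNA array 3 (-0.24, adjusted p = 0.0714), in the values as deposited, under median scaling, with the spike-in covariate and with the replicate block (adjusted p of 0.0717, 0.718, 0.212 and 0.0557). The fall of Bckdhb against vehicle, -0.32 (adjusted p = 0.00762), was lost under median scaling (adjusted p = 0.165) and with the spike-in covariate (adjusted p = 0.162). Dbt, the core acyltransferase, differed by -0.11 ± 0.10 against GFP shRNA (adjusted p = 0.425). It fell, at -0.28 ± 0.09 against vehicle (adjusted p = 0.024). That Dbt call was lost without any 1 of vehicle arrays 3 and 4 and Jnk1 shRNA array 1 (highest adjusted p = 0.0679). It was also lost under median scaling (-0.22, adjusted p = 0.255) and with the spike-in covariate (-0.14, adjusted p = 0.534). The rise of Mccc1 against vehicle, 0.31 ± 0.10, was lost without any 1 of vehicle arrays 1 and 2 and Jnk1 shRNA arrays 4 and 5 (highest adjusted p = 0.0668). The spike-in covariate also ended this call (0.25, adjusted p = 0.316). Against GFP shRNA Mccc1 was at 0.23 ± 0.11 (adjusted p = 0.127) and passed under median scaling (0.44, adjusted p = 0.0214). Mccc2, at -0.35 ± 0.14 against vehicle (adjusted p = 0.0641), passed without vehicle array 1, GFP shRNA array 2 or Jnk1 shRNA array 3 (lowest adjusted p = 0.0101).

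Propionyl-CoA carboxylase likewise changed unequally. Pccb, its beta subunit, had intensities of 641.6, 556.9, 504.8, 666.9 and 587.1 with vehicle, 511.8, 537, 473.8 and 421.2 with GFP shRNA and 413.2, 374.2, 318.2, 369.2 and 368.8 with Jnk1 shRNA, with the Jnk1 shRNA arrays below all others. It fell, at -0.40 ± 0.10 against GFP shRNA (adjusted p = 0.00577) and at -0.68 ± 0.09 against vehicle (adjusted p = 2.91e-05). Pcca, the biotin-carrying alpha subunit, had 771 to 930.9 on the Jnk1 shRNA arrays and 669.4 to 733.1 on all others, and rose by 0.24 ± 0.07 against GFP shRNA (adjusted p = 0.00885) and by 0.24 ± 0.06 against vehicle (adjusted p = 0.00554). Mut, the methylmalonyl-CoA mutase that follows, had intensities of 926.5, 999.5, 1004, 1117 and 1062 with vehicle, 1022, 849.1, 1028 and 940.3 with GFP shRNA and 707.2, 770.3, 664.6, 714.2 and 708.5 with Jnk1 shRNA. No Jnk1 shRNA array reached the others, and Mut fell, at -0.43 ± 0.07 against GFP shRNA (adjusted p = 0.000335) and at -0.52 ± 0.07 against vehicle (adjusted p = 2.19e-05). Against GFP shRNA, scaling the arrays to the same median ended the calls of Pccb (-0.16, adjusted p = 0.298) and Mut (-0.21, adjusted p = 0.289), and the spike-in covariate ended those of Pcca (0.11, adjusted p = 0.396) and Pccb (-0.44, adjusted p = 0.0568). Pcca also lost its call without both Jnk1 shRNA array 1 and GFP shRNA array 2 (0.18, adjusted p = 0.0519). Its call against vehicle was lost under median scaling (0.27, adjusted p = 0.0646) and with the spike-in covariate (0.11, adjusted p = 0.41).

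**Figure D4:**
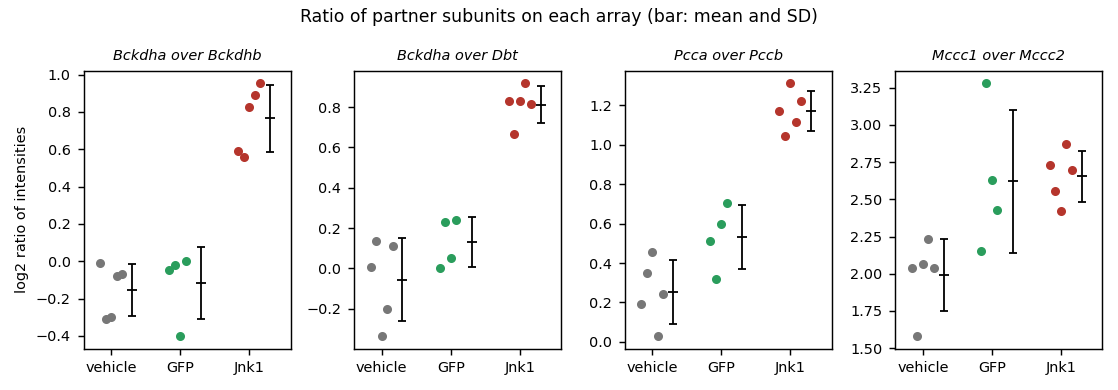
Log2 ratio of the intensities of partner subunits on each array (points) in the 3 groups, with group mean and SD as a bar; axes do not start at 0. The Jnk1 shRNA points lie above all others for Bckdha over Bckdhb, Bckdha over Dbt and Pcca over Pccb, while for Mccc1 over Mccc2 they overlap the GFP shRNA points.

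The ratio of partners within an array removes any scaling common to both, and it shows unequal change only. These pairs were chosen after their values were seen, so the ratios are given as a description with no test. The log2 ratio of Bckdha to Bckdhb was 0.56 to 0.95 on the Jnk1 shRNA arrays, -0.40 to 0.0032 on the GFP shRNA arrays and -0.31 to -0.01 on the vehicle arrays. The difference in ratio was 0.88 ± 0.12 between Jnk1 and GFP shRNA and 0.92 ± 0.10 between Jnk1 shRNA and vehicle. For Bckdha to Dbt it was 0.68 ± 0.07 and 0.87 ± 0.10, and for Pcca to Pccb 0.64 ± 0.09 and 0.92 ± 0.09. Mccc1 and Mccc2, the subunits of the methylcrotonyl-CoA carboxylase of leucine breakdown, had a difference in ratio of 0.03 ± 0.25 against GFP shRNA, where both were higher and the arrays overlapped, and 0.66 ± 0.13 against vehicle. Mccc2 was dim, at 58.0 on GFP shRNA array 2.

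Ivd, the isovaleryl-CoA dehydrogenase of leucine breakdown, had probe sets of opposite direction. The brightest was at 0.29 ± 0.10 against GFP shRNA (adjusted p = 0.0271), a call lost without any 1 of GFP shRNA arrays 3 and 5 and Jnk1 shRNA arrays 1 and 4, and the other fell, at -0.32 (adjusted p = 0.0435). The direction of this gene thus depended on the probe set. Of 14 further genes of branched-chain and propionate metabolism 3 rose and 2 fell against GFP shRNA. Auh, the methylglutaconyl-CoA hydratase that follows the Mccc1 and Mccc2 step, had the smallest adjusted p, at 0.94 ± 0.08 (adjusted p = 7.4e-07).

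Over all pathways, 90 further genes of amino acid metabolism had been listed, and 64 were tested. Against GFP shRNA 13 rose and 16 fell, with a median of -0.04, and against vehicle 12 rose and 24 fell, with a median of -0.10. Split by the compartment of the main enzyme activity, the 22 mitochondrial members held 6 rises and 9 falls against GFP shRNA, and the 27 mainly cytosolic or peroxisomal ones 4 rises and 13 falls, beside 17.3% of all probe sets that rose and 15.8% that fell. The difference between compartments was not tested.

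The Jnk1 shRNA arrays differed among themselves. Of the 22 members that fell against GFP shRNA, array 3 held the lowest value of the group for 13 and array 1 the highest for 10. Jnk1 shRNA array 1 also had the lowest spike-in level (7.92), and GFP shRNA array 2 had the highest median as deposited (58.3, beside 41.8 to 50.5 on the others). Without both of these arrays, an alternative chosen after seeing the data, 9 members rose and 23 fell against GFP shRNA. In that fit 14.8% of all probe sets rose and 14.6% fell. The SD of log2 values within a group had a median over members of 0.13 with Jnk1 shRNA, 0.11 with GFP shRNA and 0.10 with vehicle, and it was highest for Prodh with Jnk1 shRNA (0.42) and for Csad with GFP shRNA (0.52).

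Transcription factors, coactivators and a receptor known to act on these pathways were mixed. Of 17 tested, 4 rose and 5 fell against GFP shRNA, where 17.3% of all probe sets rose and 15.8% fell. Those that rose were Ppargc1b, a coactivator of mitochondrial genes (1.51 ± 0.35), Foxa2 (0.69 ± 0.19) and Cebpa (0.62 ± 0.16), factors of the hepatocyte programme, and Nr1h4, the bile acid receptor (0.43 ± 0.11). Those that fell were Nr1i3, a xenobiotic-sensing receptor (-1.39 ± 0.17, adjusted p = 1.36e-05), Gcgr, the glucagon receptor (-1.03 ± 0.10, adjusted p = 1.57e-06), Atf4, the factor of the amino acid response (-0.58 ± 0.15), Hnf4a, a main hepatocyte factor (-0.52 ± 0.07), and Creb3l3, a liver factor of the fasting response (-0.51 ± 0.06). Against vehicle 1 rose and 8 fell, with Foxa2 at 0.66 ± 0.18, Gcgr at -1.39 ± 0.09 and Nr1i3 at -1.84 ± 0.16. The median over the 17 was -0.05 against GFP shRNA and -0.33 against vehicle. Between GFP shRNA and vehicle 1 fell and 16 of the 17 were below 0, with a median of -0.36. The differences from vehicle include this difference of the control virus. The part of these regulators in the enzyme values was not tested.

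Genes that mark lobule zones were counted without the members on those lists. Of 7 periportal genes 1 rose and 2 fell against GFP shRNA, and 2 rose and 3 fell against vehicle. Of 13 pericentral genes 1 rose and 7 fell against GFP shRNA, and 1 rose and 8 fell against vehicle. The median difference against GFP shRNA was 0.04 for the periportal genes and -0.38 for the pericentral genes, beside -0.01 over all probe sets, of which 17.3% rose and 15.8% fell.

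Markers of other cells moved as well, and their part in the member values was not tested. Of 12 Kupffer cell and macrophage genes 8 fell against GFP shRNA and 5 against vehicle, with summed intensities of 3430 to 6012 with vehicle, 5747 to 6638 with GFP shRNA and 3445 to 4244 with Jnk1 shRNA over 13 genes. Of 7 stellate and fibroblast genes 4 fell against GFP shRNA (sums over 10 genes of 2074 to 2298, 2255 to 2636 and 1604 to 1760 in the same order), and of 9 endothelial genes 3 fell (sums over 10 genes of 1289 to 1374, 1062 to 1403 and 882.5 to 1031). Of 8 genes of dividing cells 2 rose and 1 fell against GFP shRNA and 7 rose against vehicle, and all 8 rose with GFP shRNA against vehicle (sums over 11 genes of 826.5 to 949.3, 1295 to 1467 and 1551 to 1877). Of 4 T, NK and B cell genes 3 rose against vehicle, with a median of 1.39. Against GFP shRNA 0 of them passed in limma, with a median of 0.14. The control virus by itself had a median of 1.15 over these genes against vehicle. Cela1, the exocrine pancreas gene tested, was at 0.47 against GFP shRNA and 0.49 against vehicle, and Retn, the adipocyte gene tested, was at -0.92 against vehicle. Alas2, the erythroid gene tested, was at -2.02 against GFP shRNA, and all 6 cholangiocyte genes measured were below the filter. The hepatocyte list held 2 falls against GFP shRNA, Apoa1 at -0.18 and Cyp2e1 at -0.14, and 6 genes that did not pass.

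The count of falls depended on how the arrays were scaled. As deposited, the arrays had been brought to 1 trimmed mean, yet their brightest probe sets differed: the highest intensity was 4332 to 5522 with Jnk1 shRNA, 6528 to 8293 with GFP shRNA and 6105 to 8401 with vehicle. Many members are bright, and their median intensity as deposited was 1045 to 1243 with Jnk1 shRNA, 1215 to 1469 with GFP shRNA and 1348 to 1746 with vehicle. Without quantile normalization 8 members rose and 25 fell against GFP shRNA, where 16.3% of all probe sets rose and 18.7% fell. Under median scaling, which gave the smaller count of falls above, the median difference over all probe sets was 0.09. With the spike-in covariate 7 rose and 18 fell, where 8.96% of all probe sets rose and 8.35% fell. Of the 32 calls against GFP shRNA, 14 held under every alternative run: falls of Prodh, Oat, Cdo1, Gstz1, Haao, Hal, Otc, Ahcy and Aass, and rises of Csad, Got2, Gldc, Cth and Bckdha. Of the 39 calls against vehicle, 24 did.

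**Figure D5:**
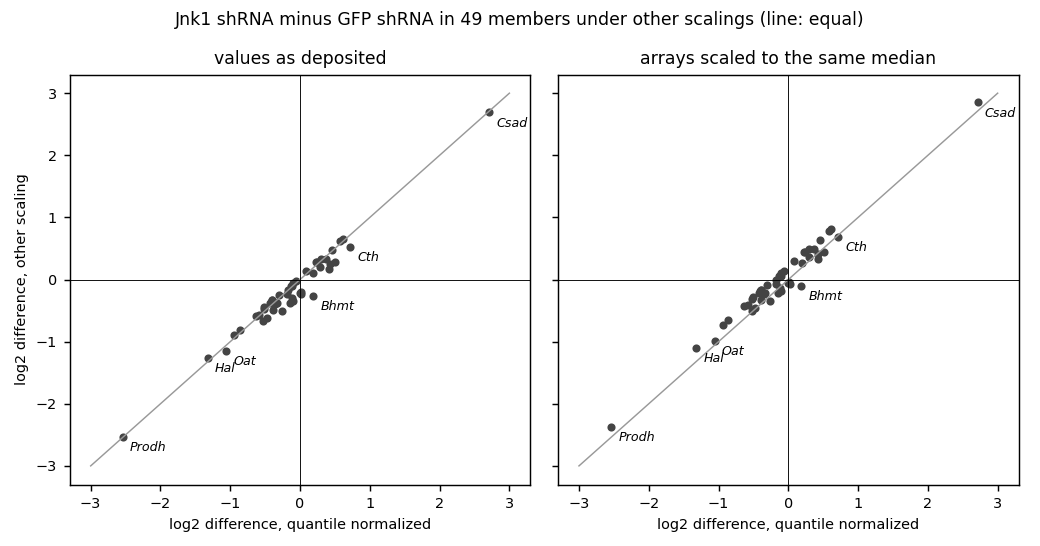
Jnk1 shRNA minus GFP shRNA on the log2 scale for the 49 members, after quantile normalization (horizontal axis) and under other scalings (vertical axis), the values as deposited on the left and arrays scaled to the same median on the right; the line marks equal values. Prodh, Hal, Oat, Cth and Csad lie near the line in both panels, Bhmt changes sign in both, and small differences near 0 shift down on the left and mostly up on the right.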

How the data were processed

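Total RNA of pulverized liver from 14 samples was hybridised to 1-colour Affymetrix arrays, per the labels' protocols. The authors deposited 1 linear intensity per probe set and array, and the arrays shared a trimmed mean of 150.1, which was tested on the values. The software that made the intensities is not given in the sources used here. Of 22690 probe sets, 64 controls were left out, as were the 40% of the remainder with the lowest means, which left 13575. Intensities were quantile normalized, floored at 2.01, which is percentile 5 of the normalized values, and log2 transformed. Groups were compared with limma 3.58.1 in R 4.3.3 (lmFit, eBayes with an intensity trend, all 14 arrays in 1 fit, Benjamini-Hochberg adjustment, threshold 0.05), and the script was tested on simulated data. Probe sets were named from the platform annotation, which can be old: 20393 had 1 gene symbol and 691 several, and the latter named no gene. Members with a difference of at least 0.5 on the log2 scale or a pathway's first or rate-setting step were described sample by sample, and the further gene of each pathway with the smallest adjusted p against GFP shRNA was named. The members and lists were chosen with earlier results of these data known. The number of arrays limits the precision. Alternatives were other scalings, filters and fits, other probe sets, a spike-in covariate, a replicate block and leaving out each array.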

Additional observations from a re-analysis of the deposited data

Results flagged for a closer look

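In 8 of 147 groups of 4 or 5 arrays, 1 array stood apart from the rest of its group by the gap to its neighbour, and chance does so in about 1 in 20 groups. Among the GFP shRNA arrays, array 1 was high for Qdpr at 3382 (others 2981 to 3032) and for Got1 at 1924 (others 1439 to 1508), array 3 for Kmo at 1744 (others 1489 to 1504) and array 5 for Glul at 2263 (others 2155 to 2171). Among the vehicle arrays, array 2 was high for Shmt2 at 920.7 (others 760.2 to 787.5) and array 1 for Bhmt at 5593 (others 5133 to 5186). Among the Jnk1 shRNA arrays, array 3 was low for Ahcy at 2084 (others 2368 to 2482) and array 2 low for Cbs at 458.2 (others 561.6 to 573.5).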

How the results depend on the processing

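Between GFP shRNA and vehicle, 0 members rose and 1 fell, as given above. The counts were 1 and 2 as deposited, beside 2.36% and 0.538% of all probe sets. They were 0 and 2 with array weights, beside 2.47% and 0.855%. With the replicate block they were 1 and 2, beside 1.49% and 0.331%. With the spike-in covariate they were 0 and 3, beside 2.16% and 0.788%. When the second-highest probe set stood for each gene, 0 fell. Under median scaling, 9 members fell between Jnk1 and GFP shRNA, where 8.43% of all probe sets fell. Between Jnk1 shRNA and vehicle 5 rose, where 18.4% of all probe sets rose. Without any 1 array, 9 to 12 members rose and 21 to 24 fell between Jnk1 and GFP shRNA. Of all probe sets 14.8% to 17.6% rose and 13.6% to 16.1% fell there. Between Jnk1 shRNA and vehicle 8 to 10 rose and 26 to 31 fell, beside 17% to 20.2% and 16.5% to 20.1% of all. Between GFP shRNA and vehicle 0 to 1 rose and 0 to 2 fell, beside 1.29% to 2.18% and 0.169% to 0.729% of all. Directions turned for Bhmt as deposited (-0.26 against GFP shRNA, -0.28 against vehicle) and under median scaling (-0.10 and -0.25), for Tdo2 as deposited (-0.25 against vehicle) and for the second probe set of Ivd (-0.32 and -0.44). The cause was not tested. Deviations of same-numbered samples of different groups had correlations of -0.0986 to 0.079, -0.0733 to 0.121 and -0.235 to 0.12 in the 3 comparisons. The samples were therefore not treated as pairs. So few correlations, with no unmatched samples beside them, cannot exclude a pairing by number. With the replicate block 11 members rose and 21 fell between Jnk1 and GFP shRNA, beside 15.8% and 14.4% of all probe sets. Between Jnk1 shRNA and vehicle 9 rose and 30 fell, beside 18% and 17.6%. Dim members such as Afmid and Mccc2 lay nearest the filter, at a mean of 28.4, where differences are least precise.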
